A study of Mus musculus with 3 samples.

Results

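Leydig cells lie between the seminiferous tubules of the testis and make its androgens. Luteinizing hormone acts on them through its receptor LHCGR, after which STAR moves cholesterol into the mitochondrion, CYP11A1 cuts off its side chain with electrons passed on by ferredoxin, and HSD3B enzymes, CYP17A1 and HSD17B3 carry the steroid on to testosterone. Adult Leydig cells also secrete INSL3, a peptide hormone that guides the descent of the testis in fetal life.

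A cell was counted as a Leydig cell by the genes of this pathway. Among cells with at least 200 detected genes and at most 10% mitochondrial counts, the summed unique molecular identifiers (UMIs, each standing for 1 captured RNA molecule) of *Cyp17a1*, *Cyp11a1*, *Star*, *Hsd3b1* and *Hsd3b6* had to reach 20 per 10000 UMIs of the cell, and at least 3 of the 5 genes had to be detected. This gave 146 of the 21142 cells in the deposited tables. Of these, 118 came from the cKO library, or 1.68% of its 7038 cells within the limits (exact Clopper-Pearson 95% interval 1.39 to 2.01), and 28 from the Tomato-negative library, or 0.449% of its 6234 cells (0.299 to 0.649). The library of control mice held 2 such cells among 6124, or 0.0327% (0.00396 to 0.118), and is not described further. Because each source is 1 library, there is no replicate and no test between sources. All intervals given here are 95% intervals and cover counting error only, as does the limit of 3 counts that stands for a count of 0.

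The cKO cells came from *Amh-cre; Scf fl/fl* mice 6 weeks old, in which Cre, driven by a promoter of Sertoli cells, removes *Scf* (*Kitl* in the tables, the gene of stem cell factor) from Sertoli cells and not from Leydig cells. Haploid germ cells had been depleted from them with a DNA dye and a flow cytometer. The Tomato-negative cells came from *Ddx4-creER; R26tdTomato* mice 8 weeks old, treated with tamoxifen to label germ cells red, after which the Tomato+ cells were sorted away. All mice were C57BL/6, and 3 mice of each kind were used, whose cells carry no label of the mouse in the tables. Genotype, age, tamoxifen, sort and library differ together between the sources and cannot be told apart, and the counts of 3′ ends do not show whether the floxed part of *Scf* was lost. Of the 118 cKO cells, 117 also stand in the table of the Tomato-negative sample, among the 149 cells there with barcodes of the cKO library, and were counted once. Of the Leydig cells of both sources, 0 shared a barcode with a cell of one of the other libraries, the control library included.

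The Leydig cells of the sources differed in depth and in nuclear RNA. The cKO cells had a median of 13020 UMIs (1132 to 27361) and 3905 genes, against 1544 UMIs (615 to 18292) and 896 genes in the Tomato-negative cells, while the other cells of these libraries had medians of 6286 and 13550 UMIs. Summed, the cKO cells held 1572980 UMIs, so that 3 counts stand for 1.91 CPM, where CPM are the counts of a gene per 1000000 UMIs of the group, and the Tomato-negative cells held 79104, so that 3 counts stand for 37.9 CPM. *Malat1*, a long noncoding RNA kept in the nucleus, took a median of 8.86% of the UMIs in cKO cells, with at least 85 UMIs in each, whereas 26 of the 28 Tomato-negative cells had at most 2 *Malat1* UMIs and 18 of them had 0. Other cells had so little *Malat1* less often, at 154 of 6920 cells (2.23%) in the cKO library and 705 of 6206 (11.4%) in the Tomato-negative library. *Neat1*, another nuclear RNA, was found in 116 of 118 cKO cells, against 1 of 28 Tomato-negative cells. The 3 cKO cells under 5000 UMIs (2274, 1132 and 4489) had 5.54%, 7.51% and 3.65% *Malat1*. Median mitochondrial shares were 2.03% in cKO and 0.575% in Tomato-negative cells. The part of depth and of nuclear RNA in the differences between the sources described here was not tested.

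**Figure D1:**
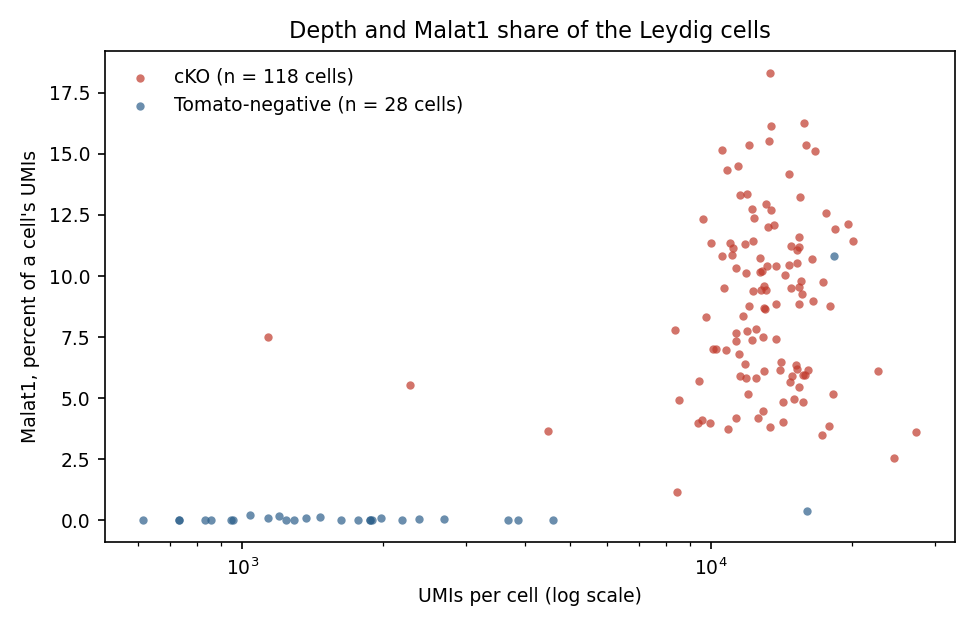
Each point is 1 Leydig cell, with its UMIs on the x axis (log scale) and its share of *Malat1* in percent on the y axis, for the cKO and the Tomato-negative library. The cKO cells lie above 1% *Malat1*, while 26 of the 28 Tomato-negative cells have at most 2 *Malat1* UMIs and under 5000 UMIs in all.

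The other 2 Tomato-negative cells were deep. The first, with 18292 UMIs, had 1976 *Malat1* UMIs, 158 of *Cyp17a1* and 141 of *Insl3*. The second, with 15984 UMIs, stood just inside the rule at 23.8 per 10000, and had 22 *Cyp17a1* and 20 *Insl3* UMIs beside 14 of *Dazl*, 3 of *Ddx4* and 7 of *Sycp3*, all genes of germ cells, and 8 of *Mki67*, a gene of dividing cells. These cells hold much of the UMIs of their group, so that the other 26 cells sum to 44828, and for several comparisons the value without them is given too. Scrublet called 4 of the cKO Leydig cells and 0 of the Tomato-negative ones doublets, and none was removed.

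The genes that chose the cells are described first, with no test. Their sum had a median of 57.9 per 10000 in cKO cells (23.5 to 279) and of 172 in Tomato-negative cells (23.8 to 374). The cKO cells just inside the limit had 23.5 and 23.7, and those just outside, with at least 3 genes detected, had 17.8 and 15.9. In the Tomato-negative library the next cells inside were at 23.8 and 38.5, and the only 2 below the limit with 3 genes at 2.55 and 0.637. A further 19 cKO and 3 Tomato-negative cells reached the sum with too few genes detected. All 5 genes were detected in 34 of the 118 cKO cells and in 6 of the 28 Tomato-negative cells.

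*Star*, at chr8:25806555-25815982 of GRCm38, had 0 to 23.1 UMIs per 10000 in cKO cells with a median of 2.63, against 0 to 27.3 with a median of 7.91 in Tomato-negative cells. Over the summed counts it stood at 441 CPM in cKO and 822 CPM in Tomato-negative cells, a ratio of 0.533 (0.416 to 0.704). *Cyp11a1*, at chr9:58006411-58027023, had a median of 2.69 per 10000 in cKO cells (0 to 45.5), against 29.8 in Tomato-negative cells (0 to 95.6), and the ratio of the summed levels was 0.296 (0.257 to 0.345). The ranges of both genes overlapped between the sources. *Cyp17a1*, at chr19:46667165-46673172 on the minus strand, was the gene of the pathway that varied most among cKO cells, with a median of 7.09 per 10000, 0 in 36 cells and up to 230. It was detected in every Tomato-negative cell, at 13.8 to 241 per 10000 with a median of 88.7, and summed to 2317 CPM in cKO and 8622 CPM in Tomato-negative cells.

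*Hsd3b6* and *Hsd3b1* lie close together on chromosome 3, at chr3:98805504-98814443 and chr3:98852194-98859794, and are near-identical, so that the split of reads between them is uncertain. *Hsd3b6*, the form of adult Leydig cells, stood at 2901 CPM in cKO and 2452 CPM in Tomato-negative cells (ratio 1.18, 1.03 to 1.37), and was the rule gene with the smallest difference. *Hsd3b1* was at 648 CPM in cKO and 391.9 CPM in Tomato-negative cells. Within the cKO cells the paralogs were not detected together in every cell. The 6 cells with 0 *Hsd3b6* UMIs all had *Hsd3b1*, at 4 to 54 UMIs with a median of 28.5, against a median of 4 in the other 112 cells. They also had a median of 53.5 *Cyp17a1* UMIs, against 6.5 in the others. Cells without *Hsd3b6* had to meet the rule through the other rule genes, so these values are not free of the rule.

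**Figure D2:**
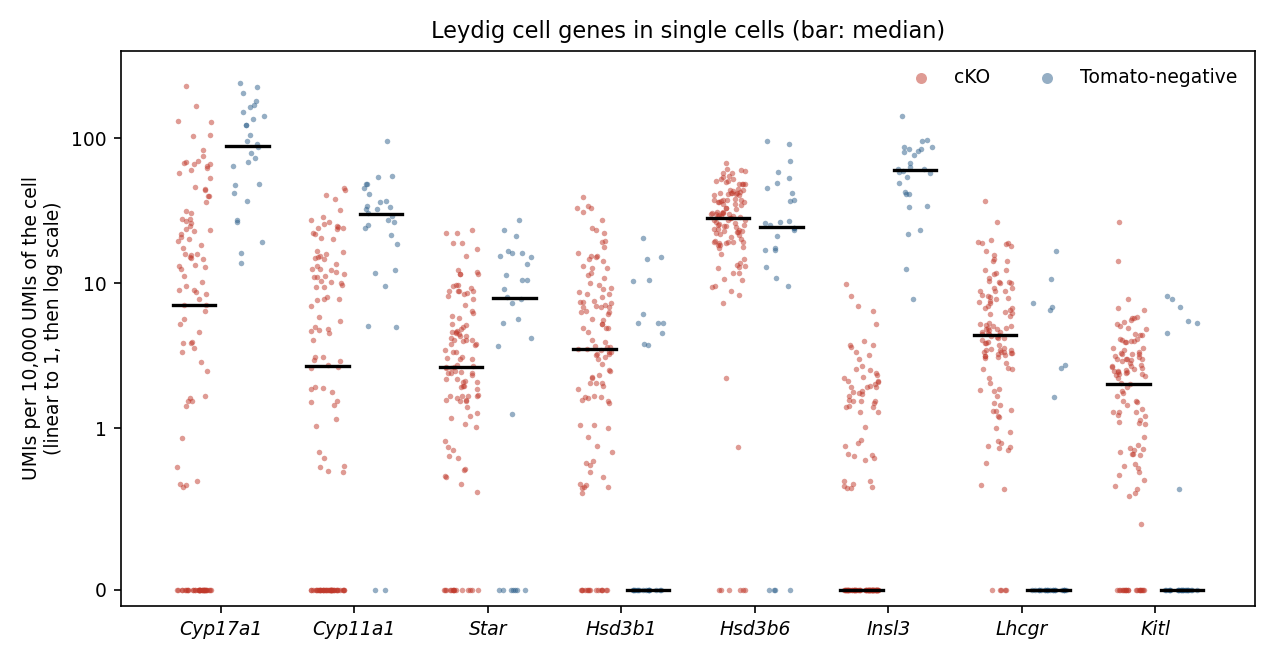
UMIs per 10000 of each Leydig cell (y axis, linear to 1 and then log) for genes of the steroid pathway, *Insl3*, *Lhcgr* and *Kitl*, with cKO cells left of Tomato-negative cells and a bar at the median. *Insl3* has medians of 0 in cKO and 60.5 in Tomato-negative cells, with little overlap.

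*Insl3*, at chr8:71689214-71690575 where it overlaps *Jak3* on the same strand, took no part in the rule. It had 0 to 9.86 UMIs per 10000 in cKO cells with a median of 0, against 7.76 to 142 with a median of 60.5 in Tomato-negative cells. The groups barely overlapped, since 2 cKO cells reached the lowest Tomato-negative cell and 0 reached the Tomato-negative median. The summed level was 108 CPM (92.4 to 126) in cKO and 5802 CPM (5284 to 6358) in Tomato-negative cells, a ratio of 0.0187 (0.0155 to 0.0223). A UMI was found in 49.2% of cKO and 100% of Tomato-negative cells, and after thinning to 1000 UMIs per cell, which left out 7 Tomato-negative cells, in 8.47% of 118 cKO and 100% of 21 Tomato-negative cells. In germ cells with at least 2 *Ddx4* UMIs, thinned in the same way, the share was 0.0437% in the cKO library and 0 of 3873 in the Tomato-negative library, which allows up to 0.0952%, where the unthinned cells had medians of 17270 and 23878 UMIs. The level in cKO Leydig cells was still 53.5-fold (36.4 to 83.5) that in stromal cells of the library, which stood at 1.99 CPM. Among the 58 cKO cells with at least 10 *Cyp17a1* UMIs *Insl3* stood at 159 CPM, and among the Tomato-negative cells without the deep ones at 6648 CPM.

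The receptor for luteinizing hormone went the other way. *Lhcgr*, at chr17:88716481-88791990 on the minus strand, had a median of 4.41 per 10000 in cKO cells (0 to 37.0), against 0 in Tomato-negative cells (0 to 16.7), with overlapping ranges. It summed to 615 CPM (577 to 655) in cKO and 177 CPM (96.8 to 297) in Tomato-negative cells, a ratio of 3.36 (2.06 to 6.38), or 2.4 (1.395 to 5.04) without the deep cells. Thinned, 38.1% (29.35 to 47.5) of cKO and 19.0% (5.45 to 41.9) of Tomato-negative cells had a UMI, with overlapping intervals. Of germ cells with *Ddx4* 0.0437% did in the cKO library and 0 of 3873 in the Tomato-negative library.

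The stretches just before the starts of *Insl3*, *Lhcgr* and *Sult1e1*, genes for a hormone, a receptor and an enzyme of steroids, are printed. Their ratios between the sources were 0.0187, 3.36 and 0.0837, so that *Lhcgr* stood less far apart than the others. They are from RefSeq on GRCm38.p6, each 5′ to 3′ on the strand of its gene. Capitals mark AGGTCA, letters within the site that the nuclear receptor NR5A1 binds, or its reverse complement TGACCT, searched on both strands over 250 bases before each start. *Insl3* lies at chr8:71689002-71689213 on the plus strand, *Lhcgr* at chr17:88792015-88792264 and *Sult1e1* at chr5:87591612-87591861, both on the minus strand.
Insl3: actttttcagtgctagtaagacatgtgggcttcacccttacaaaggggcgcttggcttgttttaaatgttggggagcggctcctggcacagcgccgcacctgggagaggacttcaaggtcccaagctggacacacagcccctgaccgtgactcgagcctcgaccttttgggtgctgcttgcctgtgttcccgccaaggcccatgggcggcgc
Lhcgr: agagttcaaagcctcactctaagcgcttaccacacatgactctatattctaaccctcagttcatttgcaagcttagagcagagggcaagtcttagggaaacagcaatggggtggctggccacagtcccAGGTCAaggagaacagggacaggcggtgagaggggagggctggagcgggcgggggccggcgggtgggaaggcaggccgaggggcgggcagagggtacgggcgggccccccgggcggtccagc
Sult1e1: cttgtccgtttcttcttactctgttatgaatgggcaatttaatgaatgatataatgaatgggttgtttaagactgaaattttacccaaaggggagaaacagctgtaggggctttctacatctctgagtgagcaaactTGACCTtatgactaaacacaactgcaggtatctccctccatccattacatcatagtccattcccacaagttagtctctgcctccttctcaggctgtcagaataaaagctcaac
The *Lhcgr* window holds the letters once, starting 122 bases before the start, and that of *Sult1e1* once, 113 bases before it on the other strand. The 212 bases of *Insl3* do not hold them, which says nothing of the factor. Of all 32851 windows, 4607 (14.0%) hold the letters, and of the 27025 genes 4260 (15.8%). Of the 25 genes of the steroid lists 16 had a window, and 4 of these held the letters. For the genes of cholesterol synthesis this was 3 of the 21 with a window, of 28 genes.

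The other genes of steroid production were mixed. In the cKO over Tomato-negative comparison, 7798 genes had at least 20 counts over both groups, of which 22.4% were at least 2-fold higher and 16.1% at least 2-fold lower in cKO cells, and the median log2 ratio over all of them was -0.04. The list of other steroid genes holds 20, of which 15 were measured. Of these, 4 were at least 2-fold higher and 3 at least 2-fold lower, with a median of 0.25. Without the deep Tomato-negative cells 4 were higher and 4 lower, with a median of -0.01. The shares of 22.4% and 16.1% are with all cells and apply to every list in this comparison. For counts without the deep cells no share over all genes was computed. *Fdx1*, ferredoxin, was at 2468 CPM in cKO and 1858 CPM in Tomato-negative cells (ratio 1.32, 1.13 to 1.58), but without the deep cells the ratio was 0.975 (0.812 to 1.19), which holds no difference. *Fdxr*, the reductase that feeds ferredoxin, was at 295 CPM in cKO and 430 CPM in Tomato-negative cells. *Hsd17b3*, which makes testosterone from androstenedione, had medians of 0.696 per 10000 in cKO and 2.85 in Tomato-negative cells, and a ratio of 0.383 (0.268 to 0.580). *Nr5a1*, the nuclear receptor that drives steroid genes, was low in both, at 65.5 CPM in cKO and 50.6 CPM in Tomato-negative cells (ratio 1.16, 0.491 to 4.84, or 1.97 without the deep cells), and the gene overlaps an antisense gene. *Srd5a1*, the 5α-reductase of immature Leydig cells, was at 113 CPM in cKO and 50.6 CPM (13.8 to 129) in Tomato-negative cells, where it rests on few counts.

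Several of these genes stood far above the stromal cells of the same library. Stromal cells were those with at least 20 per 10000 and 3 detected of *Tcf21*, *Pdgfra*, *Dcn*, *Lum* and *Igf1*, and there were 2545 of them in the cKO and 132 in the Tomato-negative library. Levels of these genes in stromal cells are therefore not free of that choice. In cKO Leydig cells 10.1% of 14104 genes were at least 2-fold higher than in stromal cells and 21.5% at least 2-fold lower. In Tomato-negative Leydig cells 18.8% of 6384 genes were at least 2-fold higher and 25.6% at least 2-fold lower. These shares apply to every list set against stromal cells. *Fdx1* was 16.2-fold higher in cKO Leydig cells than in stromal cells and 13.5-fold higher in Tomato-negative Leydig cells. *Hsd17b3* was 241-fold (132 to 562) higher in cKO Leydig cells and at least 106-fold higher in Tomato-negative ones, whose stromal cells had 0 counts. *Srd5a1* was 67.4-fold (44.7 to 110) that of stromal cells in the cKO library. *Nr5a1* was 3.40-fold (2.68 to 4.27) in the cKO and 2.42-fold (0.544 to 6.71) in the Tomato-negative library, where the interval holds no difference.

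Genes of cholesterol synthesis and supply stood far above stromal cells. Of the 28 genes of the list measured in cKO cells, 25 were at least 2-fold higher in Leydig than in stromal cells, with a median log2 ratio of 2.94 against -0.15 over all genes, and of the 18 measured in Tomato-negative cells 16 were, with a median of 2.16 against 0.02. Among all genes 10.1% were at least 2-fold higher in the cKO and 18.8% in the Tomato-negative library. The list summed to 6428 CPM in Leydig and 783 CPM in stromal cells of the cKO library, and to 4614 CPM in Leydig and 746 CPM in stromal cells of the Tomato-negative library. *Hmgcs1*, an early enzyme of the pathway, was at 828 CPM in cKO Leydig and 77.7 CPM in cKO stromal cells. *Cyp51*, which removes a methyl group from lanosterol, was 16.01-fold (14.5 to 17.7) higher in cKO Leydig than in stromal cells and 7.92-fold (4.08 to 14.99) in Tomato-negative ones. *Msmo1* and *Sc5d*, enzymes that act on later sterols, were 19.5-fold and 20.7-fold higher in cKO Leydig cells. *Soat1*, which esterifies cholesterol for storage, was at 519 CPM in cKO Leydig and 39.8 CPM in cKO stromal cells. *Npc1* and *Lipa*, which free cholesterol from lysosomes, had ratios over stromal cells of 0.832 (0.549 to 1.19) and 1.29 (0.881 to 1.81) in the cKO library, both with no difference in the interval. Between the sources, 5 of the 28 measured genes were at least 2-fold higher and 1 at least 2-fold lower in cKO cells, or 4 and 1 with genes at 0 set at their bound, with medians of 0.28 and 0.25. Without the deep cells 8 were higher and 3 lower. *Cyp51* was one of the higher ones, at 705 CPM in cKO and 240 CPM in Tomato-negative cells.

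**Figure D3:**
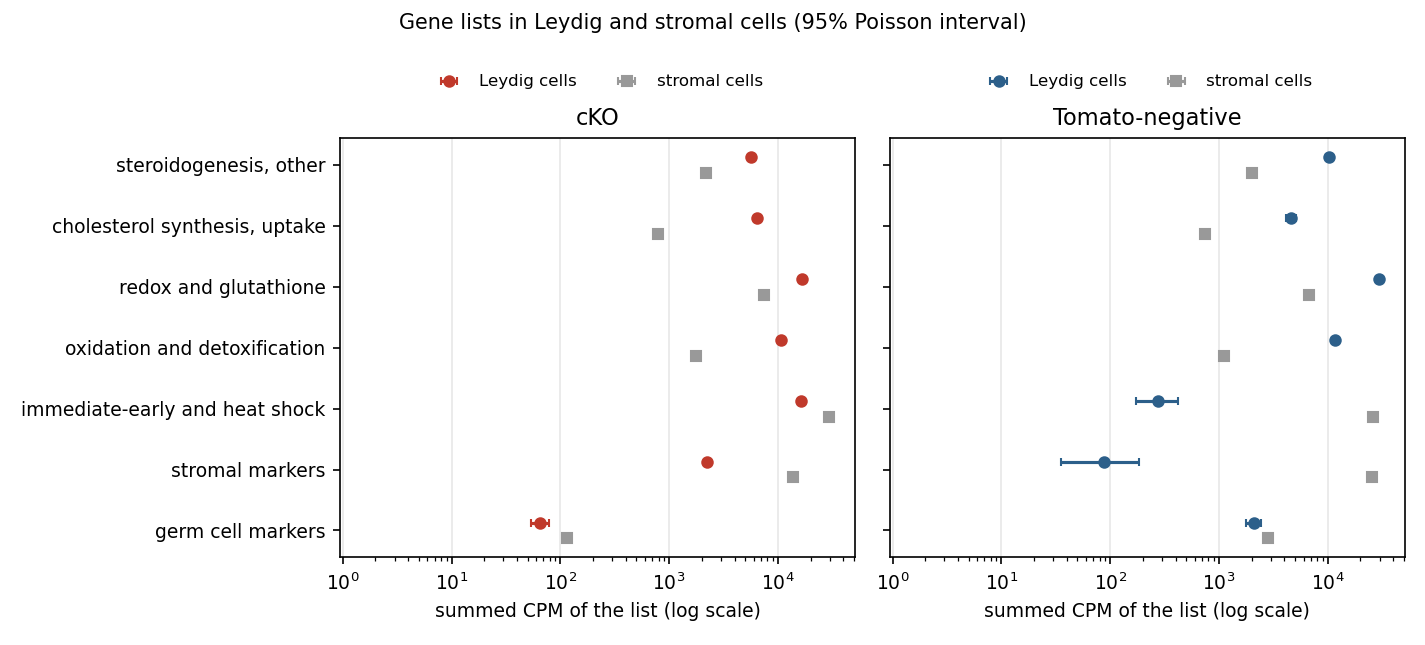
Summed CPM of each gene list (x axis, log scale; lists on the y axis) in Leydig cells (circles) and stromal cells (squares), with 95% Poisson intervals, for the cKO library on the left and the Tomato-negative library on the right. The cholesterol list is at 6428 CPM in Leydig and 783 CPM in stromal cells of the cKO library, and the stress list (immediate-early and heat shock) at 16321 CPM in cKO and 278 CPM in Tomato-negative Leydig cells.

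Enzymes that conjugate and reduce reactive molecules were next, and *Gstm1* among them was in the 20 most abundant transcripts of both sources. Of the measured genes of the redox list, 15 of 28 were at least 2-fold higher in cKO Leydig than in stromal cells, and 19 of 27 in the Tomato-negative library. Among all genes 10.1% and 18.8% were. The list summed to 16466 CPM in cKO and 29872 CPM in Tomato-negative Leydig cells, against 7368 and 6677 CPM in the stromal cells of these libraries. *Gstm1*, a glutathione transferase, had a median of 43.7 per 10000 in cKO cells (8.87 to 109), against 174 in Tomato-negative cells (13.1 to 328), with a ratio of the summed levels of 0.418 (0.391 to 0.449), or 0.267 without the deep cells. *Gsta3*, a glutathione transferase that can also isomerize steroids, stood at 794 CPM in cKO and 2136 CPM in Tomato-negative cells, and was 46.7-fold and 86.4-fold above the stromal cells of the same library. *Mgst1*, a membrane-bound transferase, was 6.70-fold and 7.33-fold above them. *Prdx3*, a peroxidase of mitochondria, was 4.38-fold (3.76 to 5.07) and 11.2-fold (6.17 to 20.6) above them. *Gpx1*, glutathione peroxidase, was at 491 CPM in cKO Leydig and 476 CPM in cKO stromal cells, a ratio of 1.03 (0.957 to 1.11). In the cKO over Tomato-negative comparison 2 of the 27 redox genes were at least 2-fold higher and 6 at least 2-fold lower, with a median of -0.46, and without the deep cells 2 were higher and 12 lower, with a median of -0.88.

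Of the genes for enzymes of the smooth endoplasmic reticulum and of detoxification, 9 of 14 were at least 2-fold higher and 3 lower in cKO Leydig than in stromal cells, and 6 of 8 higher and 2 lower in the Tomato-negative library. Among all genes 10.1% were higher and 21.5% lower in the cKO library, and 18.8% and 25.6% in the Tomato-negative library. The lower genes of the list were thus near their share over all genes. *Aldh1a1*, which makes retinoic acid from retinal, was at 3940 CPM in cKO and 5196 CPM in Tomato-negative Leydig cells, 7.06-fold and 12.3-fold above stromal cells. *Akr1cl*, an aldo-keto reductase, was at 5167 CPM in cKO and 4475 CPM in Tomato-negative cells (ratio 1.15, 1.04 to 1.29), but the ratio was 0.932 (0.823 to 1.06) without the deep cells, which holds no difference. *Ephx1*, an epoxide hydrolase, was 10.4-fold and *Ces1d*, a carboxylesterase, 250-fold (161 to 437) above stromal cells in the cKO library. *Cyp1b1* and *Fmo1*, monooxygenases, were lower in Leydig cells, at 7.63 and 12.7 CPM in cKO Leydig and 111 and 150 CPM in cKO stromal cells.

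In the cKO library the genes outside the rule that stood highest over stromal cells were *Sult1e1*, *AU021092*, *Cst8*, *Hao2*, *Ces1d*, *9230104L09Rik*, *Hsd17b3*, *Clu*, *Serpina5* and *Cd36*. *Hao2*, an oxidase of hydroxy acids in peroxisomes, was at 130 CPM in cKO Leydig and 0.206 CPM in stromal cells. *Cd36*, a carrier of fatty acids, was 169-fold (91.6 to 396) higher in cKO Leydig cells and at least 119-fold higher in Tomato-negative ones than in stromal cells. *Clu*, the secreted chaperone clusterin, which Sertoli cells also make, was at 1305 CPM in cKO and 2225 CPM in Tomato-negative Leydig cells, against 10.1 and 26.7 CPM in stromal cells. *Cst8*, a cystatin-related gene at chr2:148798785-148805595, and *9230104L09Rik*, at chr2:148846711-148865038, lie near each other. *Cst8* was at 182 CPM in cKO and 291 CPM in Tomato-negative Leydig cells, whereas *9230104L09Rik* was at 77.6 CPM in cKO and 2452 CPM in Tomato-negative Leydig cells, a ratio of 0.0317 (0.0250 to 0.0399). *Cst8* was also found in germ cells with *Ddx4* of the Tomato-negative library, at 127 CPM. In the Tomato-negative library the genes highest over stromal cells were *9230104L09Rik*, *Insl3*, *Sult1e1*, *Gsta3*, *Clu*, *Mt3*, *Lcn2*, *Ptgds*, *Ass1* and *1110008P14Rik*. *Ass1*, which makes argininosuccinate, was 31.2-fold (28.6 to 34.2) above stromal cells in the cKO library and 44.4-fold (31.3 to 65.9) in the Tomato-negative library.

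*Sult1e1*, *Ptgds*, *Lcn2*, *Fabp3* and *Cst3* were lower in cKO than in Tomato-negative cells. *Sult1e1*, the sulfotransferase that inactivates estrogen, at chr5:87575969-87591594, had a median of 0 per 10000 in cKO cells (0 to 20.9), against 13.8 in Tomato-negative cells (0 to 97.6). Its summed level was 118 CPM in cKO and 1403 CPM in Tomato-negative cells, a ratio of 0.0837 (0.0659 to 0.107). *Ptgds*, a prostaglandin D synthase secreted as a lipocalin, had medians of 0.828 in cKO (0 to 93.9) and 22.5 per 10000 in Tomato-negative cells (0 to 304), with a ratio of 0.231 (0.199 to 0.270), or 0.139 without the deep cells. *Lcn2*, lipocalin 2, was at 758 CPM in cKO and 5550 CPM in Tomato-negative cells (ratio 0.137, 0.122 to 0.153). *Fabp3*, a fatty acid-binding protein, had medians of 22.5 in cKO (0 to 105) and 90.9 per 10000 in Tomato-negative cells (8.80 to 210), and a ratio of 0.367 (0.337 to 0.400). *Cst3*, cystatin C, was at 3710 CPM in cKO and 10948 CPM in Tomato-negative cells. The ranges of *Sult1e1*, *Ptgds* and *Fabp3* overlapped between the sources. All of these genes were still lower in the cKO cells with at least 10 *Cyp17a1* UMIs than in Tomato-negative cells, where *Sult1e1* had a ratio of 0.118, *Lcn2* of 0.216, *Ptgds* of 0.362, *Cst3* of 0.411 and *Fabp3* of 0.507.

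Of the list of adult and fetal Leydig cell markers, 6 of 9 were measured. Of these, 1 was at least 2-fold higher and 3 at least 2-fold lower in cKO cells, with a median of -0.96. The shares over all genes were 22.4% and 16.1%. *Vcam1*, an adhesion molecule, was at 2849 CPM in cKO and 4121 CPM in Tomato-negative cells, 3.34-fold and 6.35-fold above stromal cells. *Thbs2*, a marker of fetal Leydig cells, and *Mc2r* and *Crhr1*, receptors of adrenal and fetal steroid cells, were at 0 counts in both groups, which allows up to 1.91 CPM in cKO and 37.9 CPM in Tomato-negative cells.

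Of the 12 measured genes of the list of hormone receptors, which holds *Lhcgr*, 6 were at least 2-fold higher and 1 at least 2-fold lower, or 5 and 1 at bounds, with medians of 0.97 and 0.88. Without the deep cells 8 were higher and 0 lower. With all cells, 22.4% of all measured genes were at least 2-fold higher in cKO cells and 16.1% at least 2-fold lower. *Prlr*, the prolactin receptor, was detected in every cKO cell, at 2.92 to 34.9 per 10000 with a median of 16.97, against 0 to 32.5 with a median of 3.96 in Tomato-negative cells. It summed to 1720 CPM in cKO and 619 CPM in Tomato-negative cells, a ratio of 2.75 (2.095 to 3.76), and was 8.78-fold above stromal cells in the cKO library. *Esr1*, the estrogen receptor, was at 119 CPM in cKO Leydig and 45.2 CPM in cKO stromal cells. *Thra*, a thyroid hormone receptor, was at 82.7 CPM in cKO Leydig and 245 CPM in cKO stromal cells.

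Stem cell factor was transcribed in the Leydig cells of both sources. *Kitl*, at chr10:100015630-100100416, had a median of 2.03 per 10000 in cKO cells (0 to 26.5) and of 0 in Tomato-negative cells (0 to 8.13). The summed level was 226 CPM (203 to 250) in cKO and 228 CPM (135 to 360) in Tomato-negative cells, a ratio of 0.966 (0.619 to 1.69), or 1.35 (0.694 to 3.62) without the deep cells. Of the 18 UMIs of the Tomato-negative cells 10 came from 1 deep cell, and the other 26 cells were at 156 CPM (62.8 to 322). A UMI was found in 83.1% of cKO and 25% of Tomato-negative cells, and after thinning in 23.7% and 19.0%, against 0.219% and 0.258% of germ cells with *Ddx4* thinned in the same way. Stromal cells stood at 186 CPM in the cKO and 206 CPM in the Tomato-negative library, so that cKO Leydig cells were 1.22-fold (1.084 to 1.36) above them. Over all cells within the limits *Kitl* stood at 54.2 CPM in the cKO library, 8.43 CPM in the Tomato-negative library and 3.37 CPM in the control library. The mix of cells differs between these libraries, with 2545 stromal cells of 7038 in the cKO library. There were 132 of 6234 in the Tomato-negative and 154 of 6124 in the control library. These levels therefore do not compare *Kitl* within a cell type. *Kit*, the receptor of stem cell factor, was carried by the Leydig cells too, at 210 CPM in cKO and 101 CPM (43.7 to 199) in Tomato-negative cells, and was 35.8-fold (28.2 to 46.2) above stromal cells in the cKO library.

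**Figure D4:**
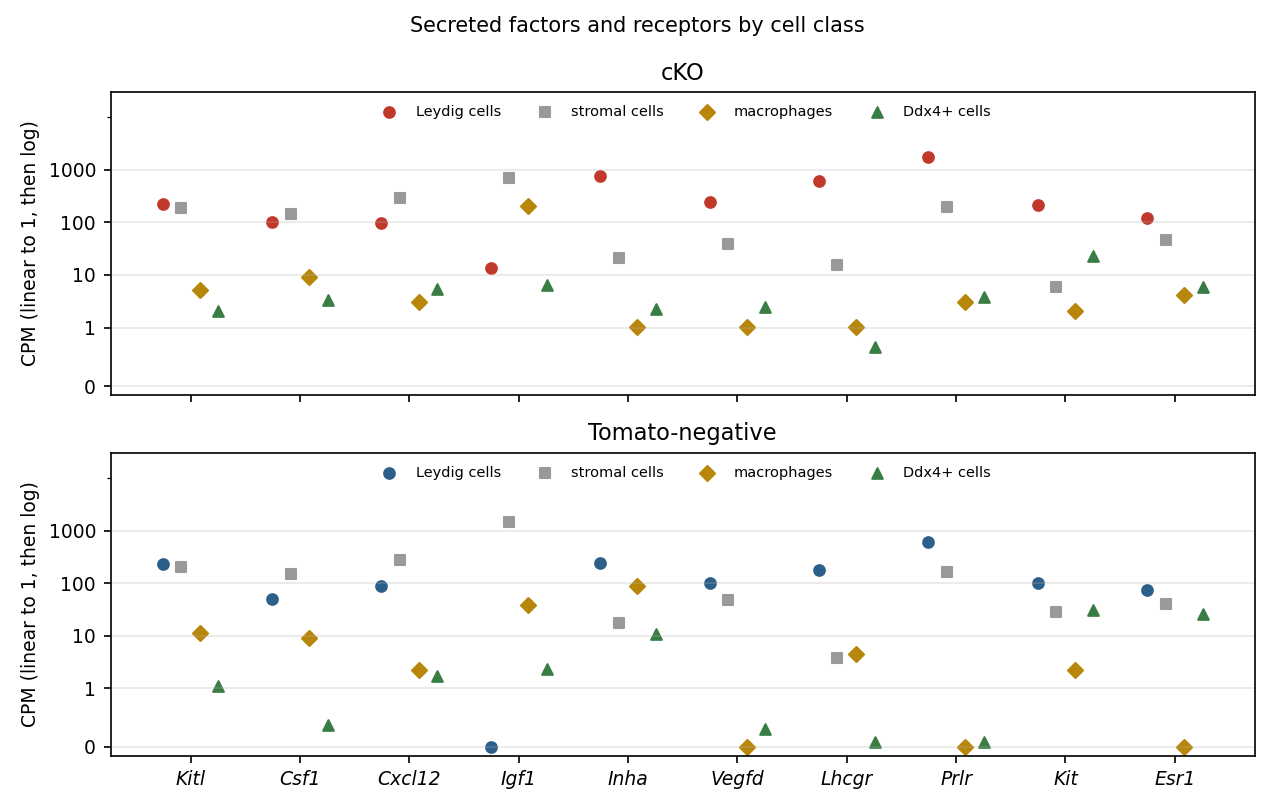
Level in CPM (y axis, linear to 1 and then log) of secreted factors and receptors in Leydig cells, stromal cells, macrophages and germ cells with *Ddx4*, for the cKO library above and the Tomato-negative library below, with no error bars. *Kitl* stands between 186 and 228 CPM in Leydig and stromal cells of both libraries, and *Igf1* is far lower in Leydig than in stromal cells, which were chosen in part by *Igf1*.

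Among the other growth factors, *Csf1*, which sustains macrophages, was at 103 CPM in cKO and 50.6 CPM in Tomato-negative Leydig cells, against 143 and 149 CPM in stromal cells. *Cxcl12*, a chemokine, was at 97.9 CPM in cKO and 88.5 CPM in Tomato-negative Leydig cells, lower than the 285 and 280 CPM of stromal cells. *Pdgfa*, a ligand of the PDGF receptors, stood at 44.5 CPM in cKO Leydig and 19.7 CPM in cKO stromal cells, a ratio of 2.28 (1.72 to 2.95). *Wnt5a*, a Wnt ligand, was at 49.6 CPM in cKO Leydig and 43.5 CPM in stromal cells, a ratio of 1.15 (0.890 to 1.45) that holds no difference. *Igf1*, insulin-like growth factor 1, was at 13.4 CPM in cKO Leydig and 691 CPM in stromal cells, a ratio of 0.0198 (0.0120 to 0.0296), and had 0 counts in Tomato-negative Leydig cells, at least 38.7-fold lower than in their stromal cells. The stromal cells were chosen in part by *Igf1*, so this difference is not free of that choice. *Bmp4*, a bone morphogenetic protein, was at 12.7 CPM in cKO Leydig and 92.5 CPM in stromal cells. Between the sources 5 of the 9 measured genes of the list were at least 2-fold higher in cKO cells and 0 lower, but with genes at 0 in Tomato-negative cells set at their bound the count was 1, and the median was 1.04 without and 0.05 with the bound. Without the deep cells 1 was higher and 0 lower. Over all genes, with all cells, 22.4% were higher and 16.1% lower.

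The list of other ligands holds 21 genes, of which 10 were measured. Of these, 8 were at least 2-fold higher and 1 at least 2-fold lower in cKO cells, or 6 and 1 at bounds. Over all genes 22.4% were higher and 16.1% lower. *Inha*, the alpha subunit of inhibin, had a median of 4.80 per 10000 in cKO cells (0 to 45.9), against 0 in Tomato-negative cells (0 to 41.0). It summed to 757 CPM in cKO and 240 CPM in Tomato-negative cells, a ratio of 3.07 (2.01 to 5.26). *Vegfd*, a growth factor of lymph vessels, was at 245 CPM in cKO and 101 CPM in Tomato-negative cells, with a ratio of 2.29 (1.22 to 5.66). *Apoe*, the apolipoprotein of lipid particles, was found in every cKO cell, at a median of 35.3 per 10000 (3.48 to 133), against 11.8 in Tomato-negative cells (0 to 48.0). It was above stromal cells in the cKO library (ratio 1.65, 1.6 to 1.69) and below them in the Tomato-negative library (0.248, 0.204 to 0.296).

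The 10 genes furthest above Tomato-negative cells in cKO cells were *Fos*, *Jun*, *Fosb*, *Cxcl1*, *Junb*, *Btg2*, *Egr1*, *Dcn*, *Atf3* and *Cebpd*, most of them immediate early genes, which respond within minutes to stimuli that include tissue dissociation. Of the 13 measured genes of the stress list 12 were at least 2-fold higher in cKO cells, with a median log2 ratio of 6.09, or 3.99 at bounds, and without the deep cells all 13 were, with a median of 5.27. *Fos*, part of the AP-1 factor, had 0 to 116 UMIs per 10000 in cKO cells with a median of 40.4, and 0 counts in Tomato-negative cells, at least 108-fold higher over the summed counts. *Jun*, its partner, was at least 66.7-fold higher, *Fosb* at least 53.8-fold and *Atf3*, a stress factor, at least 14.7-fold. With fewer UMIs left once the deep cells were taken out, these limits were at least 61.4-fold for *Fos*, 37.8-fold for *Jun*, 30.5-fold for *Fosb*, 8.30-fold for *Atf3* and 25.4-fold for *Cxcl1*. *Cxcl1*, a chemokine for neutrophils, was at 0 to 65.1 per 10000 with a median of 14.7 in cKO cells and at 0 in Tomato-negative cells, at least 44.8-fold higher. The list summed to 16321 CPM in cKO and 278 CPM in Tomato-negative Leydig cells. In stromal cells the levels lay close together, at 29346 CPM in the cKO and 26127 CPM in the Tomato-negative library. Other classes were higher in the cKO library too, with germ cells with *Ddx4* at 1719 CPM against 254 CPM. Macrophages were at 14077 CPM in the cKO and 9157 CPM in the Tomato-negative library. By single cells, the 3 shallow cKO cells named above had 198, 194 and 225 per 10000 for the list. The deep Tomato-negative cells had 2.19 per 10000 at 18292 UMIs and 3.13 per 10000 at 15984 UMIs. Over the Tomato-negative cells the list ranged from 0 to 15.2, with a median of 0. The part of depth and of nuclear RNA in this difference was not tested.

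Germ cell transcripts moved the opposite way. Of the 7 measured genes of the germ cell list all 7 were at least 2-fold lower in cKO cells, with a median of -3.47. Without the deep Tomato-negative cells 5 of these 7 were, with *Sycp3* at a ratio of 0.77 and *Dazl* at 1.74, whose UMIs in that group came from the deep cells. The list summed to 65.5 CPM in cKO and 2086 CPM in Tomato-negative Leydig cells, or 2342 CPM without the deep cells. Per cell, it reached 20 per 10000 in 0 of 118 cKO and 17 of 28 Tomato-negative cells, the highest at 116. *Tnp2*, a transition protein of spermatids, was at least 106-fold lower and *Prm2*, a protamine, at least 46.4-fold lower in cKO cells. Stromal cells had sums of 114 CPM in the cKO and 2796 CPM in the Tomato-negative library, but the median cell of the Tomato-negative library had 26.7 per 10000 among Leydig and 8.22 per 10000 among stromal cells, where single cells reached 1179 per 10000. Germ cells with *Ddx4* numbered 2290 of 7038 cells in the cKO and 3876 of 6234 in the Tomato-negative library. In them the germ cell list stood at 2818 CPM and 18159 CPM. The part of the libraries' germ cells in this difference between Leydig cells was not tested. The 705 Tomato-negative cells with at most 2 *Malat1* UMIs that were not Leydig cells had *Prm1* at 34927 CPM and *Tnp1*, another transition protein, at 12167 CPM, but *Cyp17a1* at 6.34 CPM and *Insl3* at 5.15 CPM. Of the 10 G2/M genes 3 were measured, and all 3 were at least 2-fold lower in cKO cells, with a median of -3.24. Without the deep cells 2 of the 3 were, with a median of -1.23. *Top2a*, a topoisomerase of dividing cells, then had a ratio of 1.62 in place of 0.106. *Hmgb2*, a chromatin protein, had a ratio of 0.427 in place of 0.0746.

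Genes of stromal cells were present in the cKO Leydig cells at a lower level than in stromal cells. The stromal cells were chosen by *Tcf21*, *Pdgfra*, *Dcn*, *Lum* and *Igf1*, all of which are in the stroma list. Differences from stromal cells in these genes and in that list are therefore not free of the choice. *Dcn*, the matrix proteoglycan decorin, had a median of 5.61 per 10000 in cKO cells (0 to 73.8), against a single UMI in 1 of 28 Tomato-negative cells. Thinned to 1000 UMIs, 54.2% of cKO Leydig cells had a *Dcn* UMI, against 90.2% of stromal cells and 2.45% of germ cells with *Ddx4* in that library. It was at 914 CPM in cKO Leydig and 5713 CPM in cKO stromal cells, a ratio of 0.160 (0.152 to 0.169). *Tcf21*, a transcription factor of interstitial progenitors, was at 170 CPM in cKO Leydig and 582 CPM in cKO stromal cells, and at 0 in Tomato-negative Leydig cells, so that cKO was at least 4.48-fold higher. The stroma list reached 20 per 10000 in 48 of 118 cKO and 0 of 28 Tomato-negative cells, and its sum was 2218 CPM in cKO and 88.5 CPM in Tomato-negative cells, against 13640 and 25420 CPM in stromal cells. Of 14 measured genes of the list of interstitial progenitors, 1 was at least 2-fold higher and 12 at least 2-fold lower in cKO Leydig than in stromal cells, with a median of -2.33. Among all genes 10.1% were higher and 21.5% lower. *Pdgfra*, a platelet-derived growth factor receptor, had a ratio of 0.215 (0.187 to 0.247), *Nr2f2*, a nuclear receptor, of 0.425 (0.376 to 0.477) and *Ptch1*, the Hedgehog receptor, of 0.115 (0.0879 to 0.145).

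Markers of macrophages, myoid, endothelial and vascular smooth muscle cells were found in few single cells. The macrophage list reached 20 per 10000 in 1 cKO cell, at 153, and in 1 Tomato-negative cell, at 27.3. The myoid list did so in 5 cKO cells and 0 Tomato-negative cells, and the lists of endothelial and vascular smooth muscle cells in 0 cells. The Sertoli list, which holds *Clu*, did so in 29 cKO and 22 Tomato-negative cells. Without the 6 cKO cells with macrophage or myoid markers, *Acta2*, smooth muscle actin, was at 19.1 CPM, against 220.0 CPM with them, while *Insl3* at 116, *Kitl* at 227, *Lhcgr* at 632 and *Cyp17a1* at 2079 CPM had moved by less than 1.5 times.

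Within the cKO library, the Leydig cells covered a range of *Cyp17a1* levels. They were divided, after the values had been seen, into 36 cells with 0 *Cyp17a1* UMIs, 24 with 1 to 9 and 58 with at least 10. The limits are cuts by count, and whether the parts are separate types was not tested. Near the limits, 3 cells had 8 or 9 UMIs, 7 had 10 to 12 and 12 had 1 to 3. The cells with at least 10 had a median of 36.5 and up to 418. Median depths were alike, at 13430 UMIs in the cells with at least 10, 13059 in those with 1 to 9 and 12649 in those with 0. Because *Cyp17a1* was part of the rule, cells without it had to reach the limit through the other 4 genes, so the values of *Star*, *Cyp11a1*, *Hsd3b1* and *Hsd3b6* are not free of the rule.

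The genes named here that were higher in the cells with at least 10 *Cyp17a1* UMIs than in the cells with 0 were picked after their values had been seen. *Fabp3* was at 3993 CPM in cells with at least 10 and 1164 CPM in cells with 0, a ratio of 3.43 (3.13 to 3.76). *Ptgds* was 9.72-fold higher, at 955 CPM against 97.2 CPM, and *Lcn2* 7.67-fold higher, at 1201 CPM against 156 CPM. *Hsd17b3* was at 248 CPM in cells with at least 10 and 30.2 CPM in cells with 0. *Insl3* was at 159 CPM and 25.9 CPM in these groups, *Sult1e1* at 166 CPM and 28.1 CPM, *Kit* at 296 CPM and 84.3 CPM, and *Fdxr* at 380 CPM and 145 CPM.

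Other genes were lower in the cells with at least 10 *Cyp17a1* UMIs. *Apoe* was at 2750 CPM in cells with at least 10 and 5234 CPM in cells with 0, *Vegfd* at 146 CPM and 439 CPM, *Vim*, an intermediate filament protein, at 637 CPM and 1635 CPM, and *Col3a1*, a fibrillar collagen, at 275 CPM and 696 CPM. *Dcn* was at 685 CPM in cells with at least 10 and 1160 CPM in cells with 0. *Mum1l1* was the lowest by ratio of the genes named here, at 154 CPM in cells with at least 10 and 773 CPM in cells with 0. *Lhcgr* was at 469 CPM and 938 CPM in these groups, *Star* at 368 CPM and 553 CPM, *Hsd3b6* at 2569 CPM and 3506 CPM, *Prlr* at 1578 CPM and 1897 CPM, *Ces1d* at 241 CPM and 493 CPM, and *Kitl* at 199 CPM and 290 CPM. Over the 118 cells, which share 1 library, Spearman's rho with *Cyp17a1* was 0.61 for *Fabp3*, 0.571 for *Fdxr* and 0.454 for *Kit*, and -0.535 for *Apoe* and -0.424 for *Col3a1*, given as a description.

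**Figure D5:**
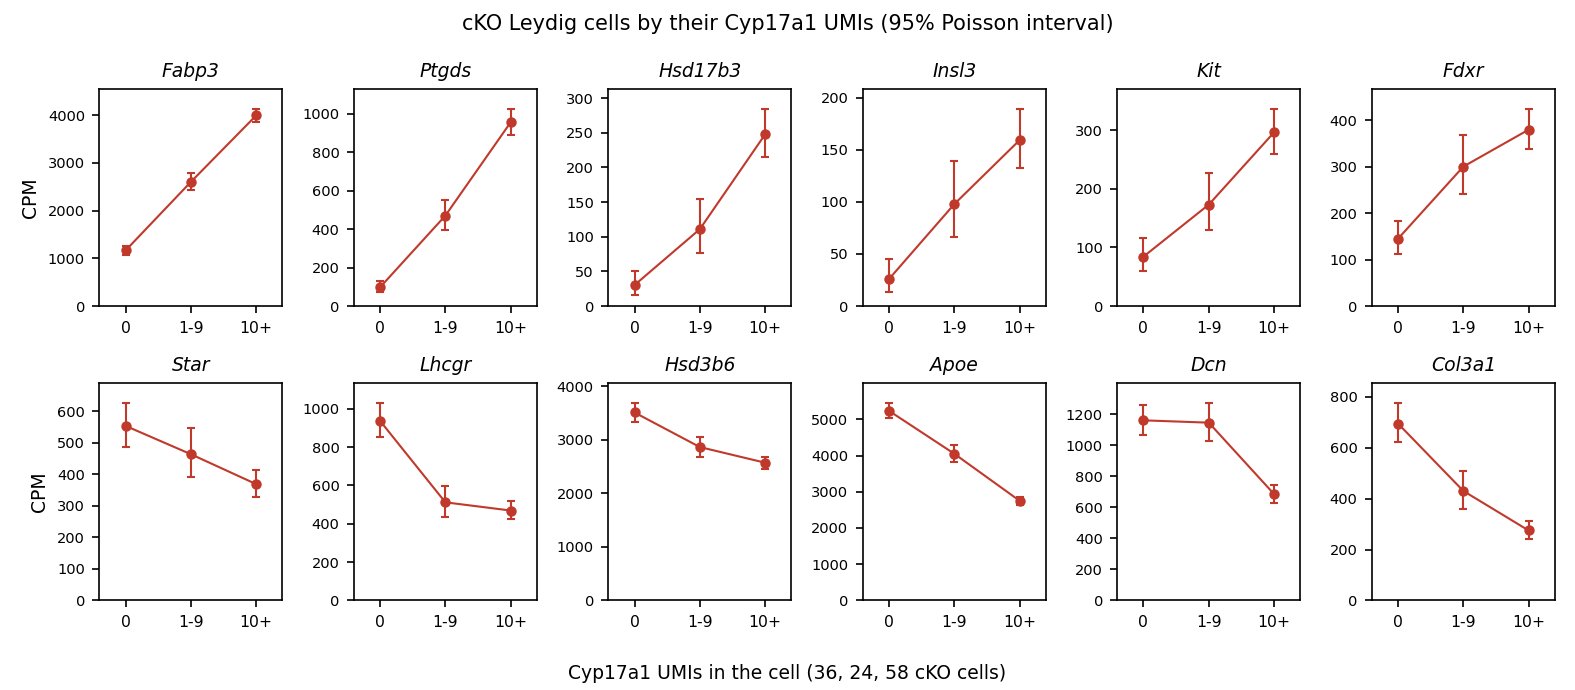
Level in CPM (y axis, linear from 0, with its own scale for each gene), with 95% Poisson intervals, of genes in cKO Leydig cells grouped by *Cyp17a1* UMIs (x axis: 36 cells with 0, 24 with 1 to 9, 58 with at least 10). *Fabp3* is at 3993 CPM in cells with at least 10 and 1164 CPM in cells with 0, and *Apoe* at 2750 and 5234 CPM.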

How the data were processed

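Droplet libraries (Chromium 3′ v2) of mouse testis cells were made by the authors into UMI counts with Cell Ranger 2.1.1 on GRCm38, and per the labels Seurat 3.1 was used. The deposited values are raw counts for each gene in each cell. Values here were computed in Python 3.11.15 with numpy 2.4.6, scipy 1.17.1 and pandas 2.3.3. UMIs were summed per group and scaled to CPM with exact Poisson intervals, and shares have exact Clopper-Pearson intervals. Ratios, with 0.5 added to each count, have exact conditional binomial intervals. Lists took genes with at least 20 counts over both groups. Genes with no row in a table were read as 0. Scrublet in scanpy 1.11.5 ran with an expected rate of 6%. Cells were thinned to 1000 UMIs without replacement (seed 1). The steps were tested on simulated counts. Positions are from GENCODE on GRCm38.

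The cells and lists were chosen with earlier results of these data known. Named genes were the markers, list members, the genes highest over stromal cells with at least 100 counts, those furthest apart between sources with at least 50 counts, the 20 most abundant of each source and the growth factors of the paper. Those named within the *Cyp17a1* range and the nuclear RNAs were chosen after their values were seen. Limits on the rule sum, genes detected, genes per cell, doublets, counts and depth were varied. Some items of the lists are not reported here.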

Additional observations from a re-analysis of the deposited data

How the results depend on the processing

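No paired analysis was possible because each source is 1 library and no test was run. The alternatives were scored for cell numbers, *Insl3*, *Kitl* and the numbers of genes at least 2-fold apart, where 92 values were scored as alike and 20 as moved. Some values could not move, since the mitochondrial limit removed 0 Leydig cells and 0 Tomato-negative ones were called doublets. Those scored as alike include 848 genes lower in cKO cells with a rule sum of 40, against 1254. They also include *Kitl* at 138 CPM with Tomato-negative cells weighted equally, against 228 CPM. Ratios of single genes were not scored in this way. Some of them lost their difference without the deep Tomato-negative cells, such as *Fdx1*, which went from 1.32 to 0.975. *Dazl* went from 0.106 to 1.74, where the Tomato-negative cells left had 0 counts and the interval, from 0.218 with no upper end, holds no difference. The number of cKO Leydig cells was 90 with a rule sum of at least 40 per 10000, 88 with at least 4 of the 5 genes and 19 with at most 3500 genes. With the sum of 40, *Insl3* in Tomato-negative cells was at 6975 CPM. With at most 3500 genes it was at 6648 CPM in Tomato-negative and 168 CPM in cKO cells, *Kitl* was at 282 CPM in cKO cells, and the genes at least 2-fold apart between sources were 427 higher and 262 lower in cKO cells, against 1745 and 1254 with all cells, while 2480 genes, against 1424, were higher in cKO Leydig than in stromal cells. With at least 50 counts, 903 were higher and 526 lower in cKO cells, and 527 higher and 836 lower in Tomato-negative Leydig than in stromal cells, against 1201 and 1632. With 50 counts fewer genes were measured. Thinned, the share of cKO cells with a UMI was 8.47% for *Insl3* (49.2% without) and 23.7% for *Kitl* (83.1% without). With 1 added to each count in place of 0.5, 855 genes were higher in cKO cells. In alternatives added after seeing the data, leaving out the 2 deep Tomato-negative cells gave 6648 CPM of *Insl3* there, with 1874 genes higher and 1252 lower in cKO cells, and taking only cKO cells with at least 10 *Cyp17a1* UMIs gave 1072 higher and 719 lower.

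The 28 Tomato-negative cells held 79104 UMIs, so that a count of 0 there allows up to 37.9 CPM, and 1 library per source allows no test.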
